A study of Homo sapiens with 16 samples.

Results

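This set of 10 regulators and markers of epithelial to mesenchymal transition (EMT) was followed in Sorafenib-resistant liver cancer cells. They were taken by symbol from the 26258 genes of the deposited table, and all 10 were found there. They are the transcription factors SNAI1, SNAI2, TWIST1, ZEB1 and ZEB2, the cadherins CDH1 and CDH2, the intermediate filament VIM, and the epithelial regulators GRHL2 and ESRP1. Messenger RNA was measured in 16 libraries from Huh7 and Hep3B, established human hepatocellular carcinoma (HCC) cell lines. For each line, 2 libraries came from each of 4 groups. Parental cells and cells labelled DMSO are both given as untreated. IR cells were raised in increasing concentrations of Sorafenib, a kinase inhibitor used against HCC, and CR cells were kept in a constantly high one, and the labels give 7 µM Sorafenib for both. How the DMSO cells were grown, and whether a resistant line is 1 clone or a pool, is not given in the sources used here. Exposure to the drug and resistance to it cannot be told apart in these comparisons.

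Epithelial cells hold together through E-cadherin junctions. During EMT, transcription factors of the SNAI, ZEB and TWIST families repress CDH1, which encodes E-cadherin, by binding short DNA motifs called E-boxes, and the cells gain N-cadherin (CDH2) and vimentin (VIM). GRHL2, a grainyhead-type transcription factor, and ESRP1, a splicing regulator, maintain the epithelial program, and GRHL2 and ZEB1 are known to repress each other. Hepatocytes are unusual epithelial cells in that they carry N-cadherin together with E-cadherin.

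Values are reads scaled to the library total (CPM), and the recovered totals lay between 46613302 and 76860251 reads per library, so that 0 reads allows up to 0.0644 CPM in the shallowest library (3 reads, counting error only). Changes are differences of log2(CPM + 1), which understate the change of low genes, from 1 limma fit of all 8 groups. A gene was called where the Benjamini-Hochberg adjusted p over 15019 tested genes was below 0.05 and the absolute log2 change was at least 0.58. Of the 10 genes, 8 passed the filter of at least 1 CPM in at least 2 libraries, whereas GRHL2 and TWIST1 did not. The IR and CR comparisons of a line share their parental libraries, and p-values measure the spread between these libraries, which may be technical. The second Huh7 DMSO library stood apart from the first in CDH1, ESRP1 and other epithelial genes, and calls of the 8 genes that change without it are given both ways. Over all genes the 2 Huh7-IR libraries were about as unlike as the 2 Huh7 DMSO libraries (Pearson r = 0.971 and 0.973). The replicates of the other groups reached at least 0.9915. Hepatocyte markers were present in the parental libraries, where 0 of 16 were below 1 CPM in both libraries of a line. Their summed level fell from 12585 to 17819 CPM in parental Huh7 to 142 to 614 CPM in Huh7-IR and 1502 to 3117 CPM in Huh7-CR cells. In Hep3B it was 20346 to 25437 CPM in parental, 3886 to 11162 CPM in IR and 2393 to 3705 CPM in CR cells. It was higher in DMSO than in parental libraries of both lines, with 26755 to 31171 CPM in Huh7 and 37282 to 44300 CPM in Hep3B, which also touches every comparison with DMSO cells. Of these 16 markers, 14 and 13 were called lower in IR and CR cells of Huh7 (17.8% and 13.6% of all genes were). In Hep3B, 9 and 12 were called lower with IR and CR (11.4% and 12.3% of all genes were), and 1 was called higher with IR. The part of this change of hepatocyte markers in the results below was not tested.

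The first question was how each gene changed in the resistant cells. Of the 8 tested genes, 3 were called higher in Huh7-IR cells, where 48.8% of all tested genes were called and 31.1% were called higher. In Huh7-CR cells 4 were (34.5% of all genes called, 20.9% higher). In resistant Hep3B cells 3 were called higher with the IR regimen (27.1% of all genes called, 15.7% higher) and 5 with the CR regimen (32.2% called, 20.0% higher). None of the 8 was called lower in any of the 4 comparisons by limma (17.8%, 13.6%, 11.4% and 12.3% of all genes were). For some genes this could not have come out otherwise. Parental means of ZEB2 in Hep3B (0.433 CPM) and ESRP1 in Huh7 (0.148 CPM) were too low for a fall of the required size on the log scale used. SNAI2 in parental Hep3B cells (0.649 CPM) had little room for such a fall. Unadjusted p-values below 0.05 added SNAI1 in Huh7-IR and CDH1 in Huh7-CR cells, both higher, and no lower call. The only lower call by the other tools was SNAI2 in Hep3B-IR cells with DESeq2 and unfiltered edgeR. CDH2 and VIM were called higher in all 4 comparisons, as were 5.28% of all genes. The plot of levels by library shows the values behind these counts.

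ZEB2, a zinc finger E-box binding repressor, lies at chr2:145121931-145278624 on the minus strand (GRCh37) and showed the largest change of the 8 tested genes. Parental Huh7 libraries held 4.15 and 1.85 CPM and the DMSO libraries 0.786 and 1.71 CPM. Huh7-IR libraries held 137 and 111 CPM, and Huh7-CR libraries 111 and 95.9 CPM. All 4 resistant libraries lay far above the 4 others, and the log2 change was 5.02 ± 0.28 (SE) in IR (adjusted p = 6.3e-08) and 4.77 ± 0.28 in CR cells (adjusted p = 1.3e-07). In Hep3B the levels were much lower. Parental libraries held 0.431 and 0.436 CPM, IR libraries 0.803 and 1.01 CPM, and CR libraries 2.91 and 2.40 CPM. The change was 1.35 ± 0.28 in Hep3B-CR cells (adjusted p = 0.0024), and that of Hep3B-IR cells was not called (0.41, 95% interval -0.19 to 1.01), although both IR libraries lay above both parental ones. The resistant change was larger in Huh7 than in Hep3B by 4.02 ± 0.34 on the log2 scale (interaction contrast, adjusted p = 5.8e-06). Of the 8, this contrast was called for ZEB2 alone in the fit of all libraries against parental cells (29.4% of all genes were, 16.3% higher). Without the second Huh7 DMSO library it was also called for SNAI1 (0.79, adjusted p = 0.048) and CDH1 (-1.20, adjusted p = 0.019). With DMSO cells as the reference and all libraries, the contrast was called for CDH1 as well (limma, -2.57, adjusted p = 0.0061). There it was -1.56 without the second Huh7 DMSO library. ZEB2-AS1, which overlaps ZEB2 on the other strand over 3080 bases, reached at most 0.0497 CPM and had reads in the 4 resistant Huh7 libraries only.

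SNAI2, the Slug repressor (chr8:49830157-49834299, minus strand), separated the CR from the IR cells in Hep3B. Parental Hep3B libraries held 0.552 and 0.746 CPM, IR libraries 0.294 and 0.0569 CPM, and CR libraries 25.9 and 10.4 CPM. The level rose in Hep3B-CR cells by 3.41 ± 0.42 (adjusted p = 8.5e-05). For Hep3B-IR the difference was -0.49 ± 0.42 and not called by limma or filtered edgeR, whereas DESeq2 gave -1.97 (adjusted p = 0.0079) and edgeR without a filter -1.95 (adjusted p = 0.028). Set against each other, Hep3B-IR cells held less SNAI2 than Hep3B-CR cells by -3.91 ± 0.42 (adjusted p = 1.4e-04). In Huh7, parental libraries held 4.002 and 3.91 CPM, IR libraries 14.0 and 4.76 CPM, and CR libraries 22.2 and 16.2 CPM. All 4 resistant libraries lay above the parental ones, but the spread between the IR replicates was wide. The change was called in Huh7-CR cells (2.01 ± 0.42, adjusted p = 0.0025) and not in Huh7-IR cells (0.91 ± 0.42, adjusted p = 0.084), where it was called without the second IR library (1.60, adjusted p = 0.0054). Against DMSO cells SNAI2 was called higher in Huh7-IR cells with both DMSO libraries (1.83, adjusted p = 0.0029) and without the second (1.99, adjusted p = 0.0081). The difference of -1.10 between IR and CR in Huh7 was not called (95% interval -2.02 to -0.18, adjusted p = 0.092), but it was called without the first IR library (-1.79, adjusted p = 0.018).

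SNAI1, the Snail repressor (chr20:48599517-48605423, plus strand), was low throughout. It held 1.93 to 3.29 CPM in parental Huh7 and 4.22 to 5.51 CPM in the 4 resistant Huh7 libraries, all of which lay above the parental ones. The second DMSO library, with 6.81 CPM, was higher than each of them. The changes of 0.73 ± 0.32 in Huh7-IR (adjusted p = 0.069) and 0.64 ± 0.32 in Huh7-CR cells (adjusted p = 0.13) were not called, and both were called once the second Huh7 DMSO library was left out of the fit (adjusted p = 0.017 and 0.042). The Huh7-IR change was also called without the first parental library (1.01, adjusted p = 0.049). In Hep3B all 8 libraries held 0.343 to 1.22 CPM, and the changes were 0.11 in IR and -0.32 in CR cells, neither of them called.

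ZEB1, the paralog of ZEB2 (chr10:31607424-31818742, plus strand), was not called in any of the 4 comparisons with parental cells. Parental Huh7 libraries held 30.2 and 35.6 CPM, IR libraries 42.6 and 31.8 CPM, and CR libraries 44.1 and 42.8 CPM. Parental Hep3B libraries held 18.1 and 17.4 CPM, IR libraries 19.1 and 17.6 CPM, and CR libraries 22.8 and 23.8 CPM. The CR libraries lay above the parental ones in both lines, by 0.40 (95% interval -0.22 to 1.02) in Huh7 and 0.38 (95% interval -0.25 to 1.00) in Hep3B. The DMSO libraries held 31.5 and 13.6 CPM in Huh7, where the first lay within the parental range and the second below it, and 13.8 and 11.3 CPM in Hep3B, both below the parental ones, and neither difference was called. With DMSO in place of parental cells as the reference, ZEB1 was called higher in Huh7-IR (0.79, adjusted p = 0.033), Huh7-CR (1.03, adjusted p = 0.012) and Hep3B-CR cells (0.84, adjusted p = 0.034). Both Huh7 calls were lost without the second DMSO library (0.22 and 0.45, adjusted p = 0.38 and 0.097). Its antisense partner ZEB1-AS1, which shares 1953 bases of its span, was called higher in Huh7-IR (0.94, adjusted p = 0.0026), Huh7-CR (0.70, adjusted p = 0.020) and Hep3B-CR cells (0.59, adjusted p = 0.046). The strand setting of the counting is not given in the sources used here, so reads from the shared stretch cannot be assigned to either gene.

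TWIST1, a basic helix-loop-helix factor (chr7:19060614-19157259, minus strand), was at or near the floor. It had 0 reads in 8 libraries and 1 to 4 reads in the other 8, at most 0.0663 CPM, and it was not called in any comparison without the filter by limma or edgeR. Compared per kilobase of the canonical transcript, the order of the ZEB paralogs differed between parental and resistant Huh7 cells. The ratio of ZEB2 to ZEB1 was 0.0333 to 0.0881 in parental Huh7 libraries and 1.43 to 2.24 in the resistant ones, while in Hep3B it stayed between 0.0153 and 0.0818 in all 8 libraries. The ratio of SNAI2 to SNAI1 per kilobase was 23.8 and 37.4 in Hep3B-CR libraries and at most 0.972 in the other 6 Hep3B libraries.

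Among the genes that mark the mesenchymal state, CDH2 (N-cadherin, chr18:25512843-25757910, minus strand) rose in all 4 resistant lines. Parental Huh7 libraries held 208 and 162 CPM, IR libraries 396 and 450.1 CPM, and CR libraries 537 and 553 CPM. Parental Hep3B libraries held 203 and 155 CPM, IR libraries 553 and 332 CPM, and CR libraries 503 and 301 CPM. Every resistant library lay above both parental ones of its line, while the IR and CR libraries of Hep3B overlapped each other. The log2 change of Huh7 was 1.197 ± 0.27 with IR (adjusted p = 0.0024) and 1.56 ± 0.27 with CR (adjusted p = 6.8e-04). That of Hep3B was 1.27 ± 0.27 with IR (adjusted p = 0.0036) and 1.13 ± 0.27 with CR (adjusted p = 0.0061). The last of these was not called without the first CR library (0.76, adjusted p = 0.076) or without the second parental library (0.94, adjusted p = 0.065). The change did not differ detectably between the lines (0.18, 95% interval -0.54 to 0.90).

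VIM (vimentin, chr10:17270240-17279592, plus strand) was the most abundant of the 10 genes in all 8 groups. Parental Huh7 libraries held 1261 and 1120.1 CPM, IR libraries 3639 and 2646 CPM, and CR libraries 2942 and 2286 CPM. Parental Hep3B libraries held 754 and 669 CPM, IR libraries 1333 and 1039 CPM, and CR libraries 2063 and 1193 CPM. Here too the resistant and parental libraries of a line did not overlap. Huh7 changed by 1.38 ± 0.25 with IR (adjusted p = 4.9e-04) and 1.13 ± 0.25 with CR (adjusted p = 0.0033), and Hep3B by 1.14 ± 0.25 with CR (adjusted p = 0.0033) and 0.73 ± 0.25 with IR (adjusted p = 0.040). The Hep3B-IR call was lost whichever of the 4 libraries compared was left out (changes 0.55 to 0.91, adjusted p 0.052 to 0.25), as well as with quantile normalization, without the filter and in a fit of Hep3B alone. VIM-AS1 overlaps VIM over 1778 bases on the other strand and held 1.00 to 5.59 CPM, against at least 499 CPM of VIM, and was not called in any of the 4 comparisons (0.28 to 0.58).

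Since CDH2 and VIM were called higher together while ZEB1 was not, the 250 bases before their first annotated starts are shown, read from the RefSeq promoter table (GRCh38.p14). That table held 4 of the 10 genes, and the windows shown carry no exon of the gene itself. The letters searched were CAGGTG and CACCTG, which are each other's reverse complement and are the E-box letters that SNAI and ZEB factors bind. Capitals mark a match, and the windows are chr18:28177131-28177380 (minus strand) for CDH2, chr10:17227991-17228240 (plus strand) for VIM and chr10:31318167-31318416 (plus strand) for ZEB1.
CDH2: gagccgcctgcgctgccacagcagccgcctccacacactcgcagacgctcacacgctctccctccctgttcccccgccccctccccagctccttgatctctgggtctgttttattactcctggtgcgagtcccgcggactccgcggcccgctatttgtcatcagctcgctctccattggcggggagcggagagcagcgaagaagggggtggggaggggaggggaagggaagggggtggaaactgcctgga
VIM: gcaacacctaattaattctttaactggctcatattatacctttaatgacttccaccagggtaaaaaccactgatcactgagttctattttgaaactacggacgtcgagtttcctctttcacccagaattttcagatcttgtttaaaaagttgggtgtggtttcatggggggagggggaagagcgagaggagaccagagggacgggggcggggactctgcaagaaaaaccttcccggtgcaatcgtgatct
ZEB1: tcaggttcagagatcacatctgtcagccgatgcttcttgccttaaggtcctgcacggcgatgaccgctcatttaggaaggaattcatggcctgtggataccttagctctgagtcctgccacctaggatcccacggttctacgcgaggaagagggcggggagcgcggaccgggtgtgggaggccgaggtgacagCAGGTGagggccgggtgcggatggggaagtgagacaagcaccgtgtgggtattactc
The motif stood 1 time in the ZEB1 window and was not in the CDH2 and VIM windows, while 17.5% of the 35116 windows of this length in the table held it. The wider pattern CANNTG, which includes these letters, was in 61.8% of the windows, 2 times in that of ZEB1 and not in those of CDH2 and VIM. A match is a description of the letters and says nothing on binding in these cells.

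CDH1 (E-cadherin, chr16:68771195-68869440, plus strand) was not called lower in any resistant line against parental cells. In Hep3B it rose. Parental libraries held 84.1 and 80.2 CPM, IR libraries 311 and 327 CPM, and CR libraries 226 and 291 CPM. All 4 resistant libraries lay above the parental and the DMSO ones (119.5 and 169 CPM in the latter). IR cells exceeded parental ones by 1.95 ± 0.49 on the log2 scale (adjusted p = 0.0096) and CR cells by 1.63 ± 0.49 (adjusted p = 0.020). Against DMSO cells the same levels gave 1.16 (adjusted p = 0.082) and 0.85 (adjusted p = 0.19), which were not called. The Hep3B-IR call was lost without the second parental library (1.91, adjusted p = 0.058), and the Hep3B-CR call whichever of the 4 libraries compared was left out (1.45 to 1.81, adjusted p 0.055 to 0.11), as well as without the filter.

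In Huh7, CDH1 differed more between IR and CR cells (-1.31) than in Hep3B (0.32), and limma called neither difference with all libraries. Parental libraries held 33.6 and 28.0 CPM, IR libraries 21.8 and 39.0 CPM, on either side of them, and CR libraries 57.6 and 95.4 CPM, both above them. The DMSO libraries held 69.2 and 282 CPM. The change was -0.07 in Huh7-IR (95% interval -1.14 to 1.00) and 1.25 ± 0.49 in Huh7-CR cells (adjusted p = 0.060), neither of them called. The Huh7-CR change was called by DESeq2 (adjusted p = 0.021) and unfiltered edgeR (adjusted p = 0.035) and with the replicate block (adjusted p = 0.031). With DMSO in place of parental cells as the reference it was -0.91 and not called by limma (adjusted p = 0.16). Without the second DMSO library that difference was 0.10. The SE of 0.49 comes from a spread shared over all groups, to which the second Huh7 DMSO library belongs. Without that library CDH1 was called higher in Huh7-CR (1.25, adjusted p = 0.0040) and lower in IR than in CR cells (-1.31, adjusted p = 0.0089), and its resistant change was called smaller in Huh7 than in Hep3B (-1.20, adjusted p = 0.019), where the fit of all libraries gave adjusted p = 0.15. Against DMSO cells CDH1 was called lower in Huh7-IR cells, with -2.22 (adjusted p = 0.0023) against both DMSO libraries and -1.21 (adjusted p = 0.012) without the second.

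The ratio of CDH2 to CDH1 mRNA, taken per kilobase of canonical transcript (4016 and 4811 bases), summarises the cadherins in each library and is given as a description. In Huh7 it was 7.42 and 6.92 in parental, 21.7 and 13.8 in IR, and 11.2 and 6.94 in CR libraries, and 2.06 and 0.407 in DMSO libraries. In Hep3B it was 2.89 and 2.32 in parental, 2.13 and 1.22 in IR, 2.67 and 1.24 in CR, and 1.68 and 0.974 in DMSO libraries. Both IR libraries of Huh7 lay above the parental ones, whereas the CR libraries of both lines overlapped the parental range and those of Hep3B-IR lay below it. In each line the DMSO libraries lay below the parental ones.

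ESRP1, which promotes the splicing of epithelial exons (chr8:95653302-95719694, plus strand), differed between the lines. Parental Hep3B libraries held 204 and 149.9 CPM, IR libraries 165 and 111 CPM, and CR libraries 235 and 177 CPM. The Huh7 libraries held 0.105 to 0.746 CPM apart from the second DMSO library, with 7.17 CPM. Changes in the resistant lines lay between -0.37 and 0.30 with an SE of 0.59 and were not called. In Huh7 cells ESRP1 was too low for a fall of the required size on the log2(CPM + 1) scale, which could be seen in Hep3B alone. The change in Hep3B-IR cells had a 95% interval of -1.66 to 0.93. Its width comes from a spread shared over all groups, to which the second Huh7 DMSO library belongs.

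GRHL2 (chr8:102504667-102681954, plus strand) was rare in all cells and was lowest in the resistant ones. Parental Huh7 libraries had 13 and 21 reads, IR libraries 2 and 0 reads, and CR libraries 1 and 2 reads. Parental Hep3B libraries had 66 and 57 reads (0.888 and 0.802 CPM), IR libraries 10 and 13 reads, and CR libraries 17 and 6 reads. All 4 resistant libraries of each line lay below the parental and the DMSO libraries. Relative to parental cells, CPM in Huh7 was 0.0789 with IR (95% exact interval 0.00918 to 0.308) and 0.0897 with CR (0.0176 to 0.285). The ratio for Hep3B was 0.187 with IR (0.115 to 0.294) and 0.212 with CR (0.130 to 0.333), with intervals that cover counting error only. As a test chosen after the data were seen, edgeR without the filter called GRHL2 lower in all 4 comparisons (log2 changes -3.81, -3.48, -2.47 and -2.40, adjusted p 0.0013 to 0.0053). On the log2(CPM + 1) scale without the filter, limma called it lower in Hep3B-IR and Hep3B-CR cells (-0.67 and -0.66), and the Huh7 changes of -0.28 and -0.27 were below the size required.

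The DMSO cells were compared with parental cells to see what the untreated groups share. In Huh7, 1 of the 8 genes was called (4.83% of all genes were), namely CDH1 with 2.15 ± 0.49 (adjusted p = 0.031), and without the second DMSO library its change was 1.15 and not called (adjusted p = 0.20). The call was also lost without the first or the second parental library (2.28 and 2.02, adjusted p = 0.12 and 0.16), without the filter and in a fit of Huh7 alone. The same library held 60.4 CPM of SPINT1, a membrane inhibitor of epithelial proteases, 8.50 CPM of its target protease ST14 and 6.89 CPM of the tight junction claudin CLDN7. The first DMSO library held 15.8, 1.31 and 0.345 CPM of SPINT1, ST14 and CLDN7. Endothelial markers summed to 38.8 CPM in the second and 11.8 CPM in the first DMSO library, 5 of the 8 were below 1 CPM in both and 2 were at 0 in both. The part of other cells in its CDH1 and ESRP1 levels was not tested. VIM (-0.79), CDH2 (-0.78) and ZEB2 (-0.80) were lower in Huh7 DMSO than in parental cells by amounts that were not called by limma (adjusted p = 0.081, 0.11 and 0.11) and were called by DESeq2. SNAI2 (-0.92, limma adjusted p = 0.20) was not called either. ESRP1 was called higher by DESeq2 (4.58, adjusted p = 0.0017) and filtered edgeR (4.59, adjusted p = 0.043), with 22 reads in the first and 499 in the second DMSO library. In Hep3B DMSO cells 0 of the 8 genes were called by limma (1.58% of all genes were), 0 had an unadjusted p below 0.05, and edgeR and DESeq2 called 0, and the largest difference was 0.78 for CDH1 (95% interval -0.29 to 1.85).

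IR and CR cells were compared to see whether the way of raising resistance mattered. In Huh7, 0 of the 8 genes were called by limma (13.7% of all genes were), while CDH1 and SNAI2 had an unadjusted p below 0.05, filtered edgeR called 0 and DESeq2 called CDH1. In Hep3B, 2 were called (11.7% of all genes, 6.41% lower), both lower in IR cells, namely SNAI2 and ZEB2. ZEB2 differed by -0.94 ± 0.28 (adjusted p = 0.042), a call that was lost whichever of the 4 libraries compared was left out (-0.84 to -1.04, adjusted p 0.12 to 0.19), with a pseudocount of 4 CPM and without the filter.

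The parental lines differed from each other before resistance. Parental Huh7 cells held more SNAI2 (1.59 ± 0.42, adjusted p = 0.0075), ZEB2 (1.42 ± 0.28, adjusted p = 0.0010), SNAI1 (0.98 ± 0.32, adjusted p = 0.022), ZEB1 (0.85 ± 0.29, adjusted p = 0.026) and VIM (0.74 ± 0.25, adjusted p = 0.025) than parental Hep3B cells. They held less CDH1 (-1.39 ± 0.49, adjusted p = 0.032) and less ESRP1 (-7.26 ± 0.59, adjusted p = 9.3e-07). Thus 7 of the 8 genes were called, as were 42.6% of all genes (18.9% higher and 23.7% lower), and CDH2 was not (0.05, 95% interval -0.54 to 0.64). Leaving out 1 parental library at a time kept the sign of all 7 differences, and between 3 and 4 of the 8 genes were called. VIM, CDH1 and ZEB1 lost their calls whichever of the 4 libraries was left out (adjusted p 0.057 to 0.12, 0.077 to 0.13 and 0.054 to 0.13), and SNAI1 lost its call without the first library of either line (adjusted p = 0.17 and 0.19).

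Compared per kilobase of canonical transcript, VIM led in parental Huh7 cells with 553 ± 46.3 CPM per kb (SD, n = 2), before CDH2 with 46.1 ± 8.20, CDH1 with 6.41 ± 0.829 and ZEB1 with 5.54 ± 0.646. In parental Hep3B cells VIM held 330.3 ± 27.9 CPM per kb, ESRP1 47.0 ± 10.2, CDH2 44.6 ± 8.36 and CDH1 17.1 ± 0.576. Here ESRP1 and CDH2 were level within their spread, as were CDH1 and ZEB1 in Huh7. Within genes, groups ranked by mean often overlapped. ESRP1 overlapped in 6 of its 7 pairs of neighbouring groups and CDH2 in 5, whereas SNAI2 overlapped in 2 and ZEB2 in 3.

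Other genes of the transition were read from 4 lists, to see whether the 10 genes moved with their kind. Of 40 mesenchymal genes, such as matrix proteins and cytoskeletal genes, 32 were tested. In Huh7, 17 were called higher and 2 lower with IR, and 22 and 0 with CR. In Hep3B, 11 rose and 4 fell with IR, and 14 rose and 2 fell with CR. In this order, which is kept below, their median log2 change was 0.82, 1.42, 0.33 and 0.66, beside 0.19, 0.07, 0.06 and 0.11 for all tested genes. Without the second Huh7 DMSO library the counts were 17 and 2, 25 and 0, 12 and 4, and 15 and 2.

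The matrix glycoprotein SPARC rose from 12.02 and 8.16 CPM in parental Huh7 to 561 and 562 CPM in IR and 366 and 445 CPM in CR libraries. Its log2 changes of 5.69, 5.21, 3.68 and 5.11 had an SE of 0.30 and were all called. The collagen chain COL1A1 (5.04, 4.21, 4.69 and 5.69), the actin-binding TAGLN (3.91, 5.40, 3.27 and 2.84) and the ligand WNT5B (2.43, 1.73, 0.68 and 1.54) were likewise called higher in all 4. COL1A1, COL1A2 and COL3A1 also stand on the list of 10 fibroblast and stellate cell markers, whose sum was 400 to 534 CPM in parental Huh7, 333 to 356 CPM in IR and 519 to 830.0 CPM in CR libraries. In Hep3B that sum was 69.7 to 75.2 CPM in parental, 82.3 to 114 CPM in IR and 83.5 to 105 CPM in CR libraries. Of the 8 tested markers of this list 5 were called higher (COL1A1, COL1A2, COL3A1, PDGFRB and RGS5) and 2 lower in each resistant Huh7 line. The 2 were LUM (-2.90 and -0.87) and PDGFRA (-5.46 and -3.11), which led the sum in parental Huh7 cells with means of 303 and 148 CPM. In each resistant Hep3B line 2 were called higher and 1 lower. THY1 reached at most 0.0569 CPM in any library. The part of other cells in the collagen levels was not tested. Not all mesenchymal genes went this way. COL5A2, a collagen chain, fell in both resistant Hep3B lines (-5.14 and -3.57) and in Huh7-IR cells (-0.80), the intermediate filament NES fell in Hep3B-IR and Hep3B-CR cells (-1.36 and -1.99), and the integrin subunit ITGA5 fell in Hep3B-IR cells (-1.47).

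Of 20 other EMT transcription factors 14 were tested, and 7 were called higher and 1 lower in IR and 8 and 0 in CR cells of Huh7, with 4 and 3 for each regimen of Hep3B. Of all tested genes 31.1%, 20.9%, 15.7% and 20.0% were called higher and 17.8%, 13.6%, 11.4% and 12.3% lower in the 4 comparisons, in the same order, and these shares are the background of each list. The medians of the 14 factors were 0.67, 0.72, -0.06 and 0.12. ETS1 rose in all 4 (2.70, 2.39, 4.15 and 5.62), from 0.404 and 0.422 CPM in parental Hep3B to 83.4 and 56.4 CPM in CR libraries, and the forkhead factor FOXC1 rose in all 4 as well (1.92, 1.55, 1.34 and 2.34). FOSL1, a subunit of AP-1, was called in Huh7-IR (2.12), Huh7-CR (1.36) and Hep3B-CR cells (1.94). PRRX1 and ZNF703 fell in both resistant Hep3B lines (-1.40 and -1.73, and -3.23 and -2.27) and were not called in Huh7. SIX2 fell in Huh7-IR (-1.14), Hep3B-IR (-1.62) and Hep3B-CR cells (-1.56).

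Of 41 epithelial junction and polarity genes 38 were tested. In Huh7, 8 were called higher and 12 lower with IR, and 5 and 10 with CR, while in Hep3B the counts were 8 and 2 with IR, and 4 and 3 with CR. Against the shares of all genes (31.1% higher and 17.8% lower with IR, 20.9% and 13.6% with CR in Huh7), higher calls were fewer and lower calls more than the background in Huh7. In Hep3B 15.7% and 20.0% of all genes were called higher and 11.4% and 12.3% lower with IR and CR. The medians were -0.24, -0.08, 0.20 and 0.11. Without the second Huh7 DMSO library the counts were 8 and 13, 7 and 10, 10 and 2, and 5 and 3. Among tight junction genes CLDN6 (-4.79 and -4.56) and CGN, or cingulin (-2.96 and -2.81), fell in both resistant Huh7 lines. For CGN the resistant change was lower in Huh7 than in Hep3B (interaction -2.72, adjusted p = 0.0019), whereas CLDN6 had a mean of 0.421 CPM in parental Hep3B cells, too low for a fall of the required size on this scale. CLDN2 rose in Huh7-IR (4.06), Huh7-CR (4.49) and Hep3B-IR cells (3.001), and CLDN4 in Hep3B-IR and Hep3B-CR cells (2.37 and 2.87). The protease inhibitor SPINT2 rose in all 4 (1.51, 1.14, 1.97 and 1.88) from at most 0.0808 CPM in parental libraries to at most 3.91 CPM. AP1M2, an epithelial sorting adaptor, fell in both resistant Huh7 lines (-3.94 and -1.83) and rose in Hep3B-IR cells (1.03).

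Of 20 other epithelial regulators 17 were tested, and the counts higher and lower were 3 and 5, 2 and 5, 3 and 3, and 3 and 5, with medians between -0.09 and -0.04. Beside the 15.7% and 20.0% of all genes called higher in Hep3B-IR and Hep3B-CR cells, 3 of 17 is near the background. The splicing regulator ESRP2, a paralog of ESRP1, fell in both resistant Huh7 lines (-1.29 ± 0.21 and -2.24 ± 0.21), from 30.9 and 31.4 CPM in parental to 5.33 and 6.33 CPM in CR libraries. It was not called in Hep3B (-0.30 and -0.22), and the difference between the lines was called (-1.51, adjusted p = 0.0010). GRHL1, a paralog of GRHL2, fell in Huh7-IR (-1.74), Huh7-CR (-2.04) and Hep3B-CR cells (-0.87). FOXA1, a pioneer factor of the liver, fell in all 4 (-2.14, -2.73, -0.78 and -1.38). KLF4 rose in all 4 (2.28, 1.65, 2.32 and 3.40), and PRDM1 (1.18 and 1.41) rose in both resistant Huh7 lines and had 0 reads in all Hep3B groups. MYCL rose in Huh7-IR and Hep3B-CR cells (1.32 and 0.93).

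As a description of likeness, the group means of each gene were correlated with those of all tested genes over the 8 groups, which share the difference between the lines and the hepatocyte change. ZEB2 was most like CCN3 (r = 0.997), and ULBP1 was also among its 3 closest genes (0.995). SNAI2 was most like MPP1 (0.970), PCTP (0.958) and ST3GAL1 (0.942). SNAI1 was most like DYRK2 (0.997), EPHA1-AS1 (0.985) and DENND2D (0.984), and ZEB1 most like GVINP1 (0.985), UEVLD (0.980) and NAA30 (0.977). CDH2 was most like MEX3C (0.983), RAB10 (0.983) and SLX4IP (0.981), VIM most like APPBP2 (0.983), ZNF438 (0.978) and ATG16L1 (0.977), and CDH1 most like TMEM150B (0.964), RABEP2 (0.932) and SH2D3A (0.924). ESRP1 was most like SNRPN and SNURF (both 0.998), which share exons, and NT5DC2 (0.996). Between the 8 genes themselves, VIM lay closest to ZEB2 (0.897) and ZEB1 (0.873), whereas CDH1 and CDH2 were unrelated over the groups (0.04) and ESRP1 was opposite to SNAI1 (-0.94).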

How the data were processed

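RNA of 16 libraries from Huh7 and Hep3B cells was sequenced, with 2 replicates of each of 8 groups, which were assigned from the sample titles. The study's methods name triplicates, while the labels hold 2 replicates a group. The authors mapped reads to hg19 with STAR, kept unique hits, counted them over the exons of RefSeq genes with QuasR, and deposited CPM for 26258 genes. Of these, 26111 gene IDs were matched to a symbol. Every column had the same sum, and 100% of values were whole reads within 0.05 reads, so read counts were recovered from the deposited CPM and ranged from 46613302 to 76860251 per library. The authors' scaling by the total alone makes each value depend on the rest of its library.

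From the CPM, log2(CPM + 1) of the 15019 genes that reached 1 CPM in 2 or more libraries entered 1 limma model of all 8 groups (version 3.58.1, R 4.3.3, trend option). P-values were adjusted by Benjamini-Hochberg over all tested genes. A call required an adjusted p below 0.05 and an absolute log2 change of at least 0.58. Alternatives were edgeR 4.0.16 and DESeq2 1.42.0 on the recovered reads, TMM factors, quantile normalization, pseudocounts of 0.25 and 4 CPM, no filter (23311 genes), each line alone, a replicate block, unadjusted p, DMSO cells as reference and each replicate left out. Fits without the second Huh7 DMSO library and edgeR without a filter were added after the data were seen. Tested on simulated data for Huh7-IR against parental cells, with 200 of 15019 genes changed and a dispersion of 0.05, limma recovered 7 of 100 changes of 2 fold and 73 of 100 of 4 fold, with 1 false call. A second simulation at a dispersion of 0.02, nearer to the spread of most replicate pairs, was added after this result was seen. There limma recovered 74 and 98. The Huh7-IR pair, which belongs to the simulated comparison, was less alike (SD between its libraries 0.566) than the parental Huh7 pair (0.289). Recovery at 0.02 may therefore be too favourable for Huh7-IR cells. At 0.05 edgeR recovered 30 and 98 and DESeq2 39 and 99, with 9 and 22 false calls. Many more genes were called in the real comparison than were changed in the simulation, so these shares do not carry over to it directly.

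The 10 genes and the lists were chosen with earlier results of these data known. The naming rule took all 10 genes, the 3 highest and 3 lowest mean changes of each of 4 lists over the resistant lines, list genes called the same way in all 4 comparisons, and the 3 genes most correlated with each tested gene over group means. Of the genes this rule names, 1 is not reported here. Gene coordinates and canonical transcript lengths came from GENCODE on GRCh37. Promoter sequences came from RefSeq on GRCh38.p14.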

Additional observations from a re-analysis of the deposited data

Results flagged for a closer look

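ZEB2 was singled out because its change in resistant cells differed between the lines by a test of the difference itself. The mean log2 change of IR and CR cells was larger in Huh7 than in Hep3B by 4.02 (SE 0.34, limma adjusted p = 5.8e-06). All 4 resistant libraries lay above both parental ones in each line, but the Hep3B-IR change was not called (0.41, 95% interval -0.19 to 1.01). Parental Hep3B cells held a mean of 0.433 CPM, a level at which log2(CPM + 1) understates a change. The difference between the lines was called under every alternative run for this contrast, with values from 3.34 to 5.16.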

How the results depend on the processing

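Of 1384 alternative values for single genes, 1284 stayed on the same side of the threshold, 49 lost a call and 51 gained one. The sign reversed in 0 where either value was called. Sign changes between uncalled values stand among the 1284, such as CDH1 in Huh7-CR cells (1.25, and -0.91 with DMSO cells as reference). The counts of the 8 genes called, with the main count first, were as follows. In Huh7-IR against parental cells 3 became 6 with DMSO cells as reference and 5 without the second Huh7 DMSO library there, and in the difference between the lines 1 became 2 and 3 under these 2 settings and 3 in the fit against parental cells without that library. In Hep3B-IR against parental cells 3 became 5 with unfiltered edgeR. The added calls were lower ones of SNAI2 and of GRHL2, which is not among the 8. In Huh7 DMSO against parental cells 1 became 5 with DESeq2 and with unfiltered edgeR, 2 with filtered edgeR and with quantile normalization, 7 with unadjusted p, and 0 without the filter and in a fit of Huh7 alone. In Huh7-IR against CR cells 0 became 1 with DESeq2, with unfiltered edgeR and without the second Huh7 DMSO library, and 2 with unadjusted p. In Hep3B-IR against CR cells 2 became 1 without the filter and with a pseudocount of 4 CPM. Between the parental lines 7 became 3 without the filter. Leaving out a replicate gave 3 to 4 called genes in Huh7-IR, 4 in Huh7-CR, 1 to 2 in Hep3B-IR, 3 to 4 in Hep3B-CR, 0 to 4 in Huh7 DMSO, 0 in Hep3B DMSO, 0 to 1 between IR and CR in Huh7, 1 in Hep3B, 3 to 4 between the parental lines and 1 in the difference between the lines. The cause of these shifts was not tested.

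Over all genes, calls in Huh7 DMSO cells went from 726 to 1833 with DESeq2, 1319 with unfiltered edgeR, 29 in Huh7 alone, 382 without the filter and 2171 with unadjusted p. Those in Hep3B DMSO cells went from 237 to 544 with DESeq2, 77 with edgeR, 516 in Hep3B alone, 507 without the second Huh7 DMSO library and 1210 with unadjusted p. Between IR and CR cells, calls went from 2051 to 194 in Huh7 alone and 3148 with unadjusted p, and in Hep3B from 1764 to 2671 with unadjusted p. Leaving out a replicate gave 6305 to 7498 calls in Huh7-IR (all libraries 7336), 3816 to 4472 in Huh7-CR (5181), 2717 to 3361 in Hep3B-IR (4063), 3351 to 4065 in Hep3B-CR (4840), 148 to 3564 in Huh7 DMSO, 46 to 122 in Hep3B DMSO, 479 to 2878 between IR and CR in Huh7, 665 to 1151 in Hep3B, 5499 to 5648 between the parental lines (6403) and 3150 to 4956 for the difference between the lines (4414). The lone library left in a group was assumed to vary like the others.

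Quantile normalization lowered the share of higher calls from 63.6% to 49.8% in Huh7-IR (53.3% with DESeq2, 52.8% with TMM), from 60.6% to 49.3% in Huh7-CR, from 57.9% to 47.7% in Hep3B-IR, from 61.9% to 49.2% in Hep3B-CR, from 71.6% to 56.3% in Huh7 DMSO and from 67.5% to 52.0% in Hep3B DMSO cells (46.8% with edgeR). Between IR and CR in Huh7 the share went from 60.3% to 47.3% (38.7% in Huh7 alone). For Huh7-IR the median log2 change over all tested genes was 0.19, and it was 0.07 with edgeR and 0.0035 with quantile normalization. CDH2 and VIM were both called higher in all 4 resistant lines under 10 of the 13 alternatives that gave all 4, and only CDH2 with quantile normalization, without the filter and in fits of each line alone.

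Whether the replicate numbers pair the samples is not settled, and the main fit did not block them. The correlation of same-numbered deviations was above 0.1 in 13 of 28 pairs of groups and below -0.1 in 5. It ranged from -0.22 to 0.44, and all 16 libraries correlated on average better with their own number. The 2 libraries of a group deviate from its mean by equal and opposite amounts, so both must give the same outcome. The 16 libraries therefore stand for 8 groups. With the replicate block, 3 of the 8 genes were called in Huh7 DMSO cells in place of 1, CDH1 was called in Huh7-CR cells (adjusted p = 0.031), and no other call of the 8 genes changed. With 2 libraries per group, an exact permutation test of 4 resistant against 2 parental libraries cannot give a p below 0.0667. GRHL2 and TWIST1 had too few reads for the log2(CPM + 1) scale.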
